A study of Mus musculus with 12 samples.

Results

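The goblet cell genes described here are Muc2, Tff3, Clca1, Fcgbp, Zg16, Spdef, Atoh1, Retnlb, Agr2 and Spink4, 10 genes chosen by name for their part in mucus production, of 32689 genes in the normalized colon table and 53801 in the count table. All 10 were found by symbol. They were read in total RNA-seq of the mouse colon, with whole blood, which holds no epithelium, as a negative check. The mice were C57BL/6 males, 8 weeks old when obtained. To model ulcerative colitis (UC), the UC mice drank water with 1.5% dextran sulfate sodium (DSS), a sugar polymer that injures the colon lining, for 7 days followed by plain water, and the control mice drank water without DSS. All were killed on day 8. The colon libraries labelled UC came from mice 1, 2 and 4 and those labelled control from mice 7, 8 and 9, so that n = 3 in each labelled group, and the blood libraries carry the same numbers. The labels record no clonal, transgenic or pooled material, and the study chose the sequenced mice within each group by their disease activity.

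Goblet cells are the mucus-secreting cells of the gut epithelium. Muc2, the gel-forming mucin, is folded in the endoplasmic reticulum with the help of Agr2, decorated with O-linked sugars in the Golgi, packed into granules and released into the lumen, where it swells into the mucus layer that keeps bacteria off the colon surface. Fcgbp, Clca1, Zg16 and Tff3 are secreted into the same layer. Atoh1 commits crypt progenitors to secretory fates and Spdef drives goblet cell maturation, whereas Retnlb and Spink4 are small secreted proteins. DSS colitis is known for thinning of the mucus and loss of goblet cells.

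For 5 of the 10 genes, a promoter window was found in RefSeq (GRCm38.p6): Muc2, Fcgbp, Spdef, Atoh1 and Agr2. Those of Muc2 and Spdef, whose levels differed several-fold between the colon libraries, and of Fcgbp, whose level differed least, are printed as the 250 bases before the start, 5′ to 3′ on the strand of the gene. The Muc2 window is chr7:141690090-141690339 on the plus strand, the Spdef window chr17:27728952-27729201 on the minus strand and the Fcgbp window chr7:28070986-28071235 on the plus strand. Capitals mark the letters CAGCTG, an E-box of the class that bHLH factors such as Atoh1 bind, and TTTAT or its reverse complement ATAAA, the core that caudal homeobox factors such as Cdx2 bind.
Muc2: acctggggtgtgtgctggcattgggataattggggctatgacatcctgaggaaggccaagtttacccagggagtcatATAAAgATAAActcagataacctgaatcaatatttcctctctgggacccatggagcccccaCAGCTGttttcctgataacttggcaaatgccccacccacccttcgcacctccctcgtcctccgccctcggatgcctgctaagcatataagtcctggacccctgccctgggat
Spdef: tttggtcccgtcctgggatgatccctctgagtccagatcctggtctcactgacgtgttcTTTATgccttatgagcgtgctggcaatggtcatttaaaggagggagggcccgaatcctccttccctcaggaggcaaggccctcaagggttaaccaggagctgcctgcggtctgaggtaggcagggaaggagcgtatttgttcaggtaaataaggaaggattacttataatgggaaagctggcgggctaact
Fcgbp: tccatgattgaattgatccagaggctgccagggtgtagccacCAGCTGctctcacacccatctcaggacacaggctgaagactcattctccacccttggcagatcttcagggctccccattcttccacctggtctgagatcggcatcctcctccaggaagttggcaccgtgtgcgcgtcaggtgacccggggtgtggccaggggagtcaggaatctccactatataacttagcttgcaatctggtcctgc
The Muc2 window held 1 CAGCTG, 112 bases before the start, and 2 TTTAT matches at 173 and 167 bases. The Spdef window held 1 TTTAT match at 191 bases and no CAGCTG. The Fcgbp window held 1 CAGCTG at 208 bases and no TTTAT. Of the windows not printed, that of Agr2 held 1 TTTAT match at 46 bases. That of Atoh1, whose level ranged 3.04-fold between the colon libraries, held neither motif. None of these matches overlap each other. Among 32841 windows of 250 bases, searched on both strands, CAGCTG was present in 13.0% and TTTAT in 37.3%. The shorter letters GGAT, the core that Spdef binds, were in 74.1% of windows and in those of Muc2, Fcgbp, Spdef and Agr2. A match describes letters only and is no evidence of binding. The printed windows were picked by the levels of their genes, and Cdx2 was named after its values were seen. The matches therefore say nothing on why levels differed.

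The disease labels were read against inflammation genes before any comparison. S100a8, a subunit of calprotectin, measured 5370, 33.1 and 22.3 normalized counts in the UC-labelled mice 1, 2 and 4 and 1888, 75.6 and 13337 in the control-labelled mice 7, 8 and 9. Lcn2, a siderophore-binding protein of inflamed epithelium, had 1248, 96.7 and 99.8 in the UC-labelled libraries and 1208, 117.2 and 9155 in the control-labelled ones. All 7 genes of the inflammation list had a log2FC below 0 (median -1.88), which is the opposite of what the labels would give in this model. Each of the 7 genes had its 3 highest levels in mouse 1, labelled UC, and mice 7 and 9, labelled control, in the colon and again in the blood. The paper reported S100a8 and Lcn2 as raised in the colon and blood of its UC mice. Between the labels here, their colon log2FC were -1.49 and -2.85, the other direction. The disease labels may therefore not match the treatment of every mouse, which was not tested. If they do not, each labelled log2FC, interval and count of calls below compares mixed groups and says nothing of DSS. The groups are kept as labelled and called labelled UC and labelled control, and each direction is one between labels. The total count per colon library ranged from 69181049 to 103662306, and the 3 libraries labelled UC had the 3 highest totals, so that depth and label cannot be told apart. The tissue labels give the tissue in fields that contradict each other, and the field used here matched the counts, since each of 8 epithelial genes had at least 22665 counts in each colon library and at most 122 in any blood library.

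Together the 10 genes took 2.497%, 1.48% and 1.99% of all counts in mice 1, 2 and 4 and 2.08%, 1.57% and 1.46% in mice 7, 8 and 9. The labelled groups overlap in this share. Its 95% Wilson intervals were no more than 0.0067 percentage points wide. They treat each count as an independent read, which counts derived from coverage are not, and leave out differences between mice. Per kilobase of exon, Tff3 and Zg16 stood highest, at means of 139635 ± 42083 and 125328 ± 26952 normalized counts per kb (SD, n = 6 colon libraries). Muc2 at 63111 ± 56700, Clca1 at 61291 ± 32173, Fcgbp at 57047 ± 9842, Spink4 at 49176 ± 23748 and Agr2 at 37697 ± 11325 followed, and neighbours in this order lie within their spread. Retnlb (4861 ± 5683) and the transcription factors Atoh1 (1457 ± 476) and Spdef (1237 ± 768) were lowest. The Muc2 locus carries a fragmented tag in GENCODE vM21 (GRCm38) and an exonic length of 7127 bases, so its level per kb is uncertain while its differences between libraries do not depend on the length.

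Muc2 (chr7:141690340-141754693, GRCm38), the gel-forming mucin itself, reached 1019389, 174587 and 151064 normalized counts in the UC-labelled mice 1, 2 and 4. In the control-labelled mice 7, 8 and 9 it had 917317, 193612 and 242781. Mice 1 and 7, which carry different labels, were the 2 high libraries, and the other 4 lay between 151064 and 242781. The means were 448347 ± 494677 in the UC-labelled libraries and 451237 ± 404386 in the control-labelled ones (SD, n = 3 each). The highest library exceeded the lowest 6.75-fold, and 6.75-fold was also the range within the libraries labelled UC, against 4.74-fold within the control-labelled ones. Since this is bulk tissue, fewer goblet cells and less RNA per cell cannot be told apart here or below.

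The RNA levels of Fcgbp, Zg16 and Tff3, whose proteins are secreted beside Muc2, had a narrower range. Fcgbp (chr7:28071236-28120862), a large mucus protein that is cross-linked with Muc2, had 652701, 551939 and 726200 normalized counts in mice 1, 2 and 4 and 481287, 685499 and 495329 in mice 7, 8 and 9. Its highest library exceeded its lowest 1.51-fold, and mouse 4 was highest where Muc2 was lowest. Zg16 (chr7:127050156-127087328), a lectin that binds the wall of Gram-positive bacteria, had 188463, 124783 and 208471 in the UC-labelled libraries and 129046, 153980 and 140479 in the control-labelled ones, a range of 1.67-fold. The Zg16 locus contains a long noncoding and a small nuclear RNA gene on the other strand, and they share no exonic bases with it. Tff3 (chr17:31125306-31129646), the trefoil peptide of goblet cells that aids repair of the epithelium, had 68552, 63440 and 103963 in mice 1, 2 and 4 and 51419, 78859 and 46806 in mice 7, 8 and 9, a range of 2.22-fold. Mice 4 and 8, again with different labels, were the 2 highest for both Fcgbp and Tff3.

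Clca1 (chr3:145003817-145032776), a secreted metalloprotease that processes the mucus, had another order of libraries than Muc2. It had 162393, 222314 and 438412 normalized counts in mice 1, 2 and 4 and 113457, 304206 and 148191 in mice 7, 8 and 9. Mice 4 and 8 were highest and mouse 7, the second highest for Muc2, was lowest. Its range was 3.86-fold. The labelled groups overlap in RNA level for each of these genes of secreted proteins.

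Among the regulators, Spdef (chr17:27714352-27728955), the ETS factor of goblet cell maturation, had 6223, 2072 and 1457 normalized counts in mice 1, 2 and 4 and 3356, 1852 and 2155 in mice 7, 8 and 9. Mice 1 and 7 were high and mouse 4 lowest, the same 3 positions as for Muc2, and the range was 4.27-fold. Atoh1 (chr6:64729125-64731245), the bHLH factor of the secretory lineage, had 4563, 3179 and 3432 in the UC-labelled libraries and 2604, 3266 and 1501 in the control-labelled ones. Its groups overlapped by mouse 8 alone, which stood above mouse 2, and its range was 3.04-fold.

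Agr2 (chr12:35992907-36004087), a disulfide isomerase that Muc2 needs to fold, had 65603, 43711 and 47329 normalized counts in mice 1, 2 and 4 and 66884, 36136 and 32334 in mice 7, 8 and 9. Spink4 (chr4:40920052-40931395), a peptidase inhibitor of the Kazal type, had 28039, 19946 and 17110 in the UC-labelled libraries and 44159, 12551 and 18937 in the control-labelled ones. Mice 7 and 1 were the 2 highest for both genes, and their ranges were 2.07-fold and 3.52-fold.

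Retnlb (chr16:48816856-48818892), the resistin-like molecule beta that goblet cells secrete against bacteria, was close to on or off. It had 9118, 0 and 11.5 normalized counts in mice 1, 2 and 4 and 6411, 0 and 4758 in mice 7, 8 and 9, from 9627, 0, 14, 5070, 0 and 5288 counts. A count of 0 allows up to 3 counts, or 2.61 normalized counts in mouse 2 and 3.78 in mouse 8. Against the higher of these limits, Retnlb was at least 2411-fold higher in mouse 1, at least 1696-fold higher in mouse 7 and at least 1258-fold higher in mouse 9. The 3 libraries with 4758 or more carry both labels, as do the 3 with few or none.

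**Figure D1:**
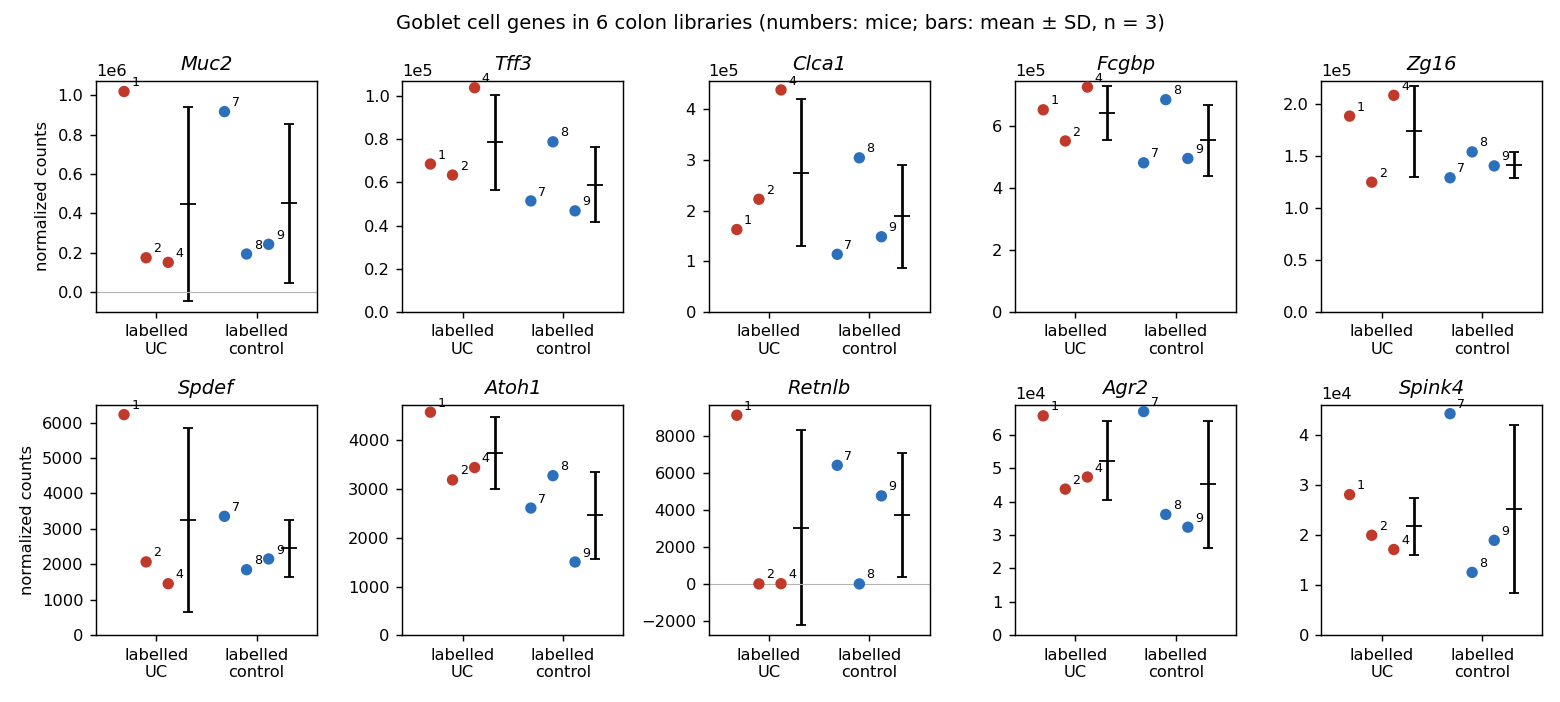
Normalized counts on linear axes of the 10 goblet cell genes in the 6 colon libraries, red for labelled UC and blue for labelled control, with the mouse number beside each point and the mean ± SD of each group (n = 3) as a bar. The groups overlap for each gene, and Muc2 stood at 1019389 in mouse 1 and 917317 in mouse 7 against at most 242781 elsewhere.

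The genes did not move together. Mouse 1 had the highest level of 4 genes (Muc2, Spdef, Atoh1 and Retnlb), mouse 4 of another 4 (Tff3, Clca1, Fcgbp and Zg16) and mouse 7 of the remaining 2 (Agr2 and Spink4). As a description of how alike 2 patterns are, each gene was centred on its own mean of log2(normalized count + 1) and the root mean square distance was taken over the 6 libraries. Of the 45 pairs, Fcgbp and Zg16 were closest at 0.16, followed by Tff3 and Fcgbp at 0.18, Tff3 and Zg16 at 0.25 and Agr2 and Spink4 at 0.34. Muc2 was nearest to Spdef at 0.56, then to Spink4 at 0.72 and Agr2 at 0.85, and stood at 1.23 from Fcgbp, 1.34 from Tff3 and 1.69 from Clca1. The distances of Retnlb were over 5 to each other member, which the libraries at 0 set through the added count.

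Among 15841 genes with a mean of at least 100 normalized counts, Spdef ranked 176 in nearness to Muc2, Spink4 470 and Agr2 1167, while Fcgbp ranked 9142, Tff3 12362 and Clca1 14915. The 5 nearest genes were Rassf4 at a distance of 0.12, Slc35d1 at 0.16, and Nkain1, Kbtbd11 and Acox2 at 0.21, 0.21 and 0.22. Slc35d1, a transporter of nucleotide sugars into the endoplasmic reticulum, had 9332, 1655 and 1359 normalized counts in mice 1, 2 and 4 and 8230, 2203 and 1884 in mice 7, 8 and 9. The ranks describe 6 libraries that share a tissue and a scaling, and with so few many genes lie near any pattern.

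The spread over the 6 libraries was set against that of 9145 genes with a mean of at least 1000 normalized counts, whose median SD of log2(normalized count + 1) was 0.28. The SD of Muc2 was 1.24, above that of 96.4% of these genes, and those of Spdef and Clca1 were above 90.1% and 89.3%. Fcgbp and Zg16 were near the middle, above 44.0% and 55.0%. Retnlb was above 99.9%.

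Ratios within a library, which no scaling of the libraries can change, restate the distances to Fcgbp above in other units. They are therefore no separate support. The Muc2 count over the Fcgbp count was 1.56, 0.316 and 0.208 in mice 1, 2 and 4 and 1.91, 0.282 and 0.490 in mice 7, 8 and 9, a range of 9.16-fold. Mice 1 and 7 were the libraries with more Muc2 than Fcgbp counts. Clca1 over Fcgbp was 0.249, 0.403 and 0.604 in the UC-labelled libraries and 0.236, 0.444 and 0.299 in the control-labelled ones, lowest in mice 7 and 1. Zg16 over Fcgbp ranged only from 0.225 to 0.289, and Tff3 over Fcgbp from 0.0945 to 0.143.

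**Figure D2:**
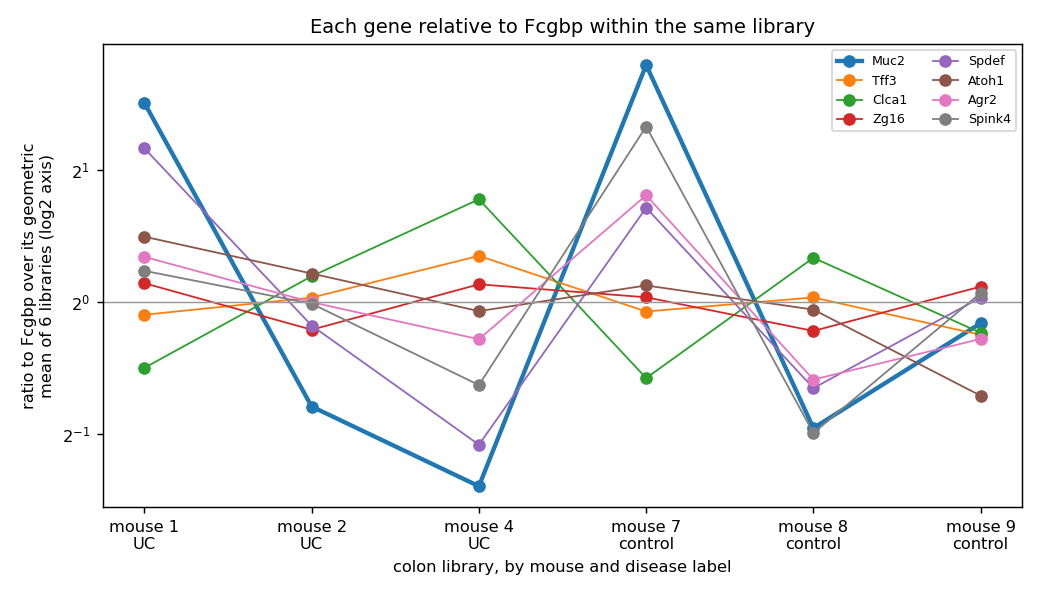
Ratio of each gene's normalized count to that of Fcgbp in the same library, divided by its geometric mean over the 6 colon libraries (log2 axis), for 8 genes. Retnlb is left out because it is at 0 in mice 2 and 8. The Muc2 ratio ran from 0.208 in mouse 4 to 1.91 in mouse 7 before division, while Zg16 stayed within a range of 1.29-fold.

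Genes of position along the gut differed between the libraries as well. Hox genes mark position from the front to the rear of the body, and in the gut their levels change along its length. The sum of 6 posterior Hox genes (Hoxa13, Hoxb13 and Hoxd10 to Hoxd13) was 4383, 41908 and 47204 normalized counts in mice 1, 2 and 4 and 5753, 48619 and 18520 in mice 7, 8 and 9, lowest in the 2 libraries where Muc2 was highest. The sum of 6 anterior ones (Hoxb4 to Hoxb9) was 10259, 2344 and 1801 against 8528, 2057 and 1458, highest in the same 2 libraries. Cdx2, the intestinal homeobox factor, had 12701, 1411 and 1216 in mice 1, 2 and 4 and 11069, 1228 and 3808 in mice 7, 8 and 9, the same order of high and low libraries as Muc2 apart from mice 2 and 8, where it hardly differed. Cdx2 was named after its values were seen.

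The summed markers of other cells also varied. Those of 9 absorptive colonocyte genes ranged from 441715 to 1022978 in the UC-labelled libraries and from 204050 to 1211244 in the control-labelled ones, lowest in mouse 9. In the same order of labels, the 6 enteroendocrine genes summed to 15898 to 71320 and 17267 to 51715. The 7 neutrophil genes summed to 181 to 12877 and 358 to 41488. Over all libraries the 6 smooth muscle genes summed to 128101 to 534675, lowest in mouse 9 and highest in mouse 2. The 5 fibroblast genes summed to 40431 to 99524, highest in mouse 9. Mice 1 and 7, highest for Muc2, were also highest for the absorptive and enteroendocrine sums. They were highest too for the sums of tuft genes (3820 and 3970) and of Paneth and small intestine genes (2340 and 1678). For the sum of intestinal stem cell genes they were lowest (3086 and 2635). These sums, like the Hox sums above, weigh the most abundant genes most. They do not show that each gene of a list follows its sum. The neutrophil sum was at least 5512 in the 3 libraries in which Retnlb had at least 4758 normalized counts, and at most 358 in the other 3. No list gene among these was at 0 in each of the 6 libraries. The part of position, inflammation and other cells in the levels of the goblet cell genes was not tested. Gastric mucous genes were close to absent, summing to at most 54.0.

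**Figure D3:**
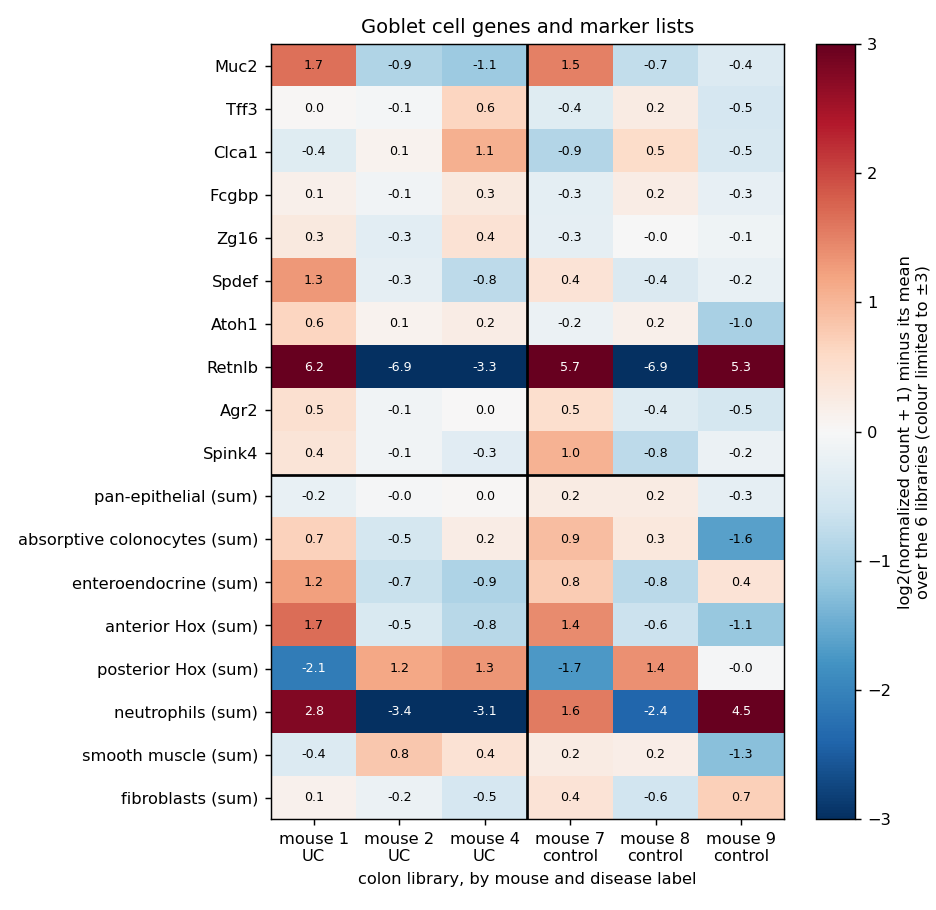
The 10 genes (upper block) and the summed normalized counts of marker lists (lower block) in each colon library, as log2(normalized count + 1) minus its mean over the 6 libraries, printed in each cell and coloured up to ±3. Muc2, Spdef and the anterior Hox sum were high in mice 1 and 7, where the posterior Hox sums were 4383 and 5753. Retnlb was high in mice 1, 7 and 9.

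For the comparison of labelled UC with labelled control colon, edgeR's quasi-likelihood test was fitted over 22238 genes. All 10 goblet cell genes passed the filter on low counts. An SDE (significantly differentially expressed) gene needed a Benjamini-Hochberg padj no higher than 0.05 together with |log2FC| > 1. None of the 10 genes was called, against 0.0045% of all genes tested (1 gene), and none had an unadjusted p under 0.05, against 1.41%. For none of the 10 did the normalized counts of the labelled groups part without overlap, against 5.66% of genes. DESeq2 and limma-voom called none of the 10 either. The log2FC was above 0 for 7 of them and below 0 for 3, with a median of 0.24 against -0.0069 over all genes tested. With 3 libraries a group of uncertain label, a call that was missed does not show that levels were alike, and the intervals below give the range that these data allow.

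The genes of the mucus proteins had small log2FC values and unequal intervals. Muc2 had a log2FC of -0.03 (SE 0.94, 95% interval -2.28 to 2.22, edgeR padj = 1.00), and the sign depended on which library was left out, from -1.49 without mouse 1 to 1.03 without mouse 7. For Fcgbp, the log2FC was 0.20 with an interval from -0.41 to 0.81, the narrowest but for Zg16 (0.29, -0.31 to 0.88). Tff3 had 0.40 (-0.33 to 1.12) and Clca1 0.52 (-0.72 to 1.76). Clca1 dropped to 0.02 without mouse 4 and reached 1.07 without mouse 8. A 2-fold difference in either direction lies outside the intervals of Fcgbp and Zg16 and inside that of Muc2.

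Atoh1 had the largest log2FC, 0.58 (SE 0.32, -0.19 to 1.35, unadjusted p = 0.117 by edgeR, n = 3 each), and stayed above 0 whichever library was left out, from 0.32 to 0.85. Without mouse 8 its unadjusted p by edgeR was 0.0383 and its padj 0.572. The share of all genes with an unadjusted p under 0.05 was not computed for that fit, so this p has nothing to be read against. Spdef had 0.39 (-0.97 to 1.75) and turned to -0.49 without mouse 1. Agr2 had 0.19 (-0.62 to 1.00) and Spink4 -0.23 (-1.38 to 0.92), and Spink4 turned to 0.46 without mouse 7. Retnlb had -0.30 with an interval from -6.90 to 6.30 and went to -9.29 without mouse 1 (edgeR unadjusted p = 0.0315, padj = 0.971). That library held nearly all its counts among the libraries labelled UC, so the value rests on it.

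**Figure D4:**
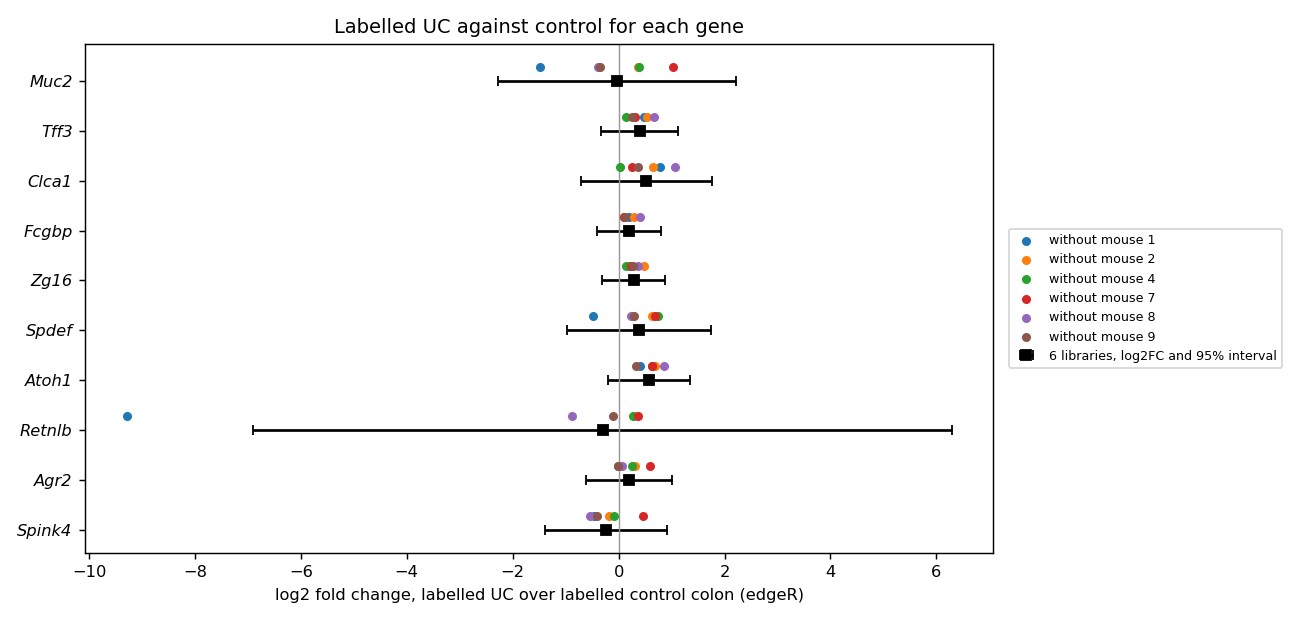
The edgeR log2FC of labelled UC over labelled control colon for each gene (black squares) with its 95% interval (bars), and the log2FC with each mouse left out in turn (coloured points above). The intervals cross 0 for all 10 genes, and Muc2 ran from -1.49 to 1.03 and Retnlb from -9.29 to 0.37 as libraries were left out.

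Each gene was also divided by the geometric mean of 8 epithelial genes (Epcam, Krt8 and others) in the same library, which itself ranged 1.42-fold. Muc2 over epithelium was 15.0, 2.51 and 2.08 in mice 1, 2 and 4 and 10.3, 2.33 and 3.89 in mice 7, 8 and 9, again high in mice 1 and 7. Fcgbp over epithelium was 9.59, 7.95 and 9.99 against 5.43, 8.25 and 7.93. Atoh1 over epithelium was 0.0670, 0.0458 and 0.0472 in the UC-labelled libraries and 0.0294, 0.0393 and 0.0240 in the control-labelled ones. Here Atoh1 was the 1 gene of 10 whose groups did not overlap, against 7.52% of all genes on this scale. With the edgeR fit scaled on these epithelial genes, the Atoh1 log2FC was 0.79 with an unadjusted p of 0.0266 (padj 0.999), and 1.67% of all genes had an unadjusted p under 0.05. That scaling raised the median log2FC of all genes to 0.13.

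The rest of the pathway was read through lists of genes chosen by function. Of 11 further mucins and trefoil factors, 5 passed the filter and none was called, with a median log2FC of -0.10. Muc13 and Muc3, transmembrane mucins of the surface, were abundant and even, between 201907 and 331319 and between 107901 and 207703 normalized counts. Muc3a, a separate entry named after its values were seen, was not even. It had 6597, 847 and 649 in mice 1, 2 and 4 and 3273, 749 and 1334 in mice 7, 8 and 9. Muc4, another transmembrane mucin, had 10985, 3264 and 2147 in mice 1, 2 and 4 and 10012, 3067 and 4816 in mice 7, 8 and 9, highest in the libraries where Muc2 was highest. Muc1 had 480 to 1208. Tff1 had at most 9.90 normalized counts, and Tff2, the trefoil factor of gastric mucous cells, was at 0 counts in all 6 colon libraries.

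Of 22 genes for mucin O-glycosylation, 21 were tested, none was called, and 15 had a log2FC above 0 (median 0.14). B3gnt6, which makes the core 3 sugar of colonic mucin, had 2777, 47.0 and 72.6 normalized counts in mice 1, 2 and 4 and 1246, 68.1 and 50.4 in mice 7, 8 and 9. Mice 1 and 7 stood far above the rest. Galnt12, which adds the first sugar, had 9866, 3092 and 4088 against 8088, 3696 and 4891, with the same 2 libraries highest. Galnt3 had 6560, 3193 and 2583 against 6817, 2458 and 6399, high also in mouse 9. C1galt1c1, the chaperone of the core 1 enzyme, ranged from 2569 to 6026. St6galnac1, a sialyltransferase of mucin, was listed at 0 counts in all 6 colon libraries, which allows up to 3 counts in each. Whether its RNA was absent or missed by the quantification was not tested.

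Of 16 genes of secretory fate and Notch signalling, none was called and the median log2FC was -0.03. Foxa3 had an unadjusted p of 0.0451 by edgeR (log2FC 0.62, padj = 1.00), 1 gene of 16 against 1.41% of all genes. It was also the 1 gene of these 16 whose groups did not overlap, against 5.66% of all genes. Its normalized counts were 3601, 4768 and 2753 in mice 1, 2 and 4 and 2604, 2570 and 2003 in mice 7, 8 and 9. Foxa1, its relative, ranged from 2291 to 3885 with a log2FC of -0.09. Hes1, the Notch target that represses Atoh1, had 1623, 1929 and 5380 against 2212, 4965 and 1978, highest in mice 4 and 8, the libraries with the most Clca1. Klf4, a factor of goblet cell differentiation, ranged from 19181 to 33989, Creb3l1 from 2745 to 6597 and Gfi1 from 229 to 1031.

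Of 16 genes of folding in the secretory pathway, none was called, 8 had a log2FC above 0 and 8 below, and the groups did not overlap for 2, against 5.66% of all genes. One of these was Ern2, the goblet cell form of the IRE1 stress sensor, with 8660, 9103 and 8106 normalized counts in mice 1, 2 and 4 and 6415, 7790 and 3765 in mice 7, 8 and 9 (log2FC 0.51, edgeR unadjusted p = 0.122). The other was Edem1, named after its values were seen, with a log2FC of 0.18. Xbp1, the factor spliced by these sensors, ranged from 7891 to 14675.

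Of 12 genes of mucus release and fluid transport, none was called and 11 had a log2FC above 0 (median 0.33). Best2, a chloride and bicarbonate channel of colonic goblet cells, had 1457, 3842 and 6030 normalized counts in mice 1, 2 and 4 and 747, 5315 and 869 in mice 7, 8 and 9, high in mice 4, 8 and 2. Nlrp6, a sensor linked to mucus granule release, ranged from 7629 to 16734 and Sytl2, a vesicle tether, from 8269 to 19387. Slc12a2, named after its values were seen, was the 1 gene of 12 whose groups did not overlap, against 5.66% of all genes (log2FC 0.56, edgeR unadjusted p = 0.0532).

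Of 12 cytokines and receptors that act on goblet cells, 8 were tested, none was called and the median log2FC was -0.38. Il22 had 62.5, 0 and 0 normalized counts in mice 1, 2 and 4 and 136.6, 0 and 150.3 in mice 7, 8 and 9. Il33, an alarmin, had 3479, 503 and 393 against 4389, 277 and 3572. Both were present or high in the 3 libraries that held Retnlb at 4758 or more, which carry both labels. Il13, a known inducer of goblet cell genes, was at 0 counts in all 6 colon libraries, which allows up to 3 counts in each.

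Of 18 other goblet and deep crypt genes, none was called, 13 had a log2FC above 0 (median 0.25), and the groups did not overlap for 3, against 5.66% of all genes. These 3 were Hepacam2, Klk1 and Ramp1, named after their values were seen. Retnlg, which is also on the neutrophil list, had the lowest log2FC of the 18, -2.72. It too was named after its values were seen. Reg4, a secreted lectin of the deep crypt, had 6523, 19676 and 14333 normalized counts in mice 1, 2 and 4 and 37128, 10111 and 3177 in mice 7, 8 and 9, highest in mouse 7 and lowest in mouse 9. Ang4, an antimicrobial ribonuclease, had 777, 32.2 and 142.7 against 585.5, 10.1 and 98.1, highest in mice 1 and 7. Bcas1 ranged from 2715 to 10634 and Capn9 from 1016 to 3446, both lowest in mouse 9. The 8 epithelial genes had a median log2FC of -0.18, with 7 below 0.

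**Figure D5:**
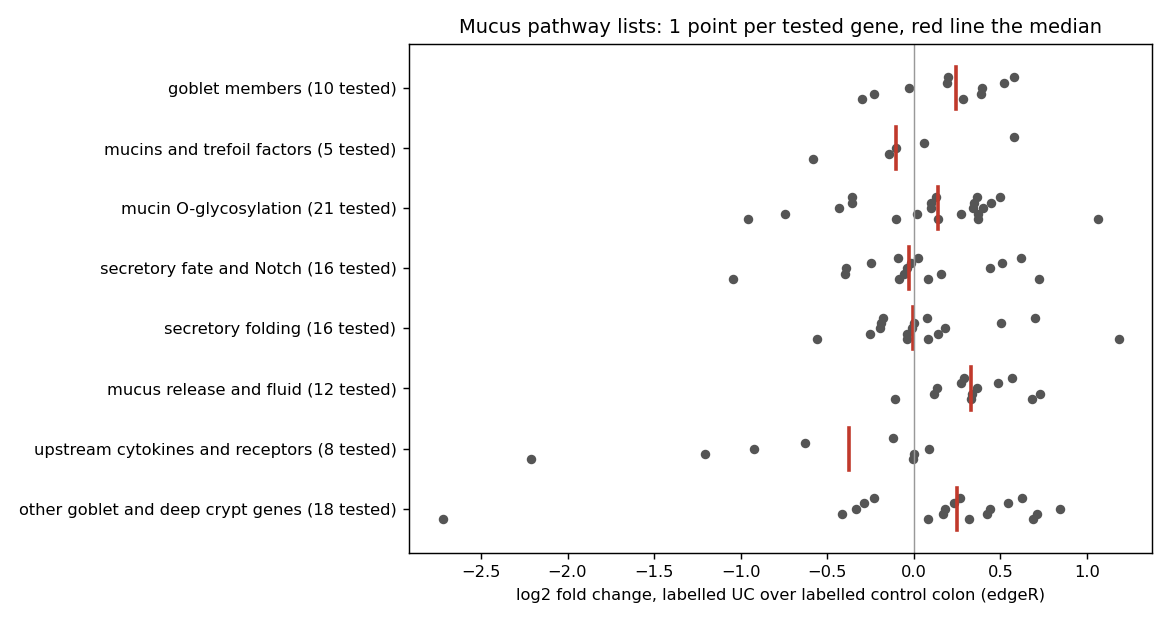
The edgeR log2FC of labelled UC over labelled control colon, 1 point for each tested gene, for the 10 goblet cell genes and 7 lists of the mucus pathway, with the median of each list as a red line. The medians ran from -0.38 for cytokines and receptors to 0.33 for mucus release, and no gene shown was called. The lowest point of the other goblet and deep crypt genes, at -2.72, is Retnlg, which is also on the neutrophil list.

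In whole blood, the negative check, the 10 genes had 518 counts in all over 6 libraries whose totals ranged from 80867247 to 142536804. None passed the filter, which 16759 blood genes did, so no test was made. Mouse 2, labelled UC, held 207 of these counts and mouse 9, labelled control, 273, or 2.56 and 2.96 CPM against 14568 CPM or more in the colon. The other 4 libraries had 4 to 20 counts. Fcgbp led with 91 counts in mouse 2 and 136 in mouse 9, followed by Clca1 with 42 and 53, Zg16 with 43 and 22 and Muc2 with 22 and 37. Atoh1 was at 0 in all 6 blood libraries.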

How the data were processed

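Total RNA of colon and whole blood was depleted of ribosomal RNA, and blood also of globin RNA, and sequenced by Illumina HiSeq. The authors trimmed the reads, mapped them with STAR to GRCm38 and quantified them with StringTie 1.3.4c on Ensembl 92. The count values they deposited are gene counts derived from StringTie coverage, with no strand set, so they are not a direct tally of reads. The deposited normalized tables hold a signal: each count divided by the authors by 1 factor per library, the same for 100% of genes. The tables were made for each tissue alone, so levels were compared within a tissue. Per-sample columns left unused numbered 0.

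Groups and mouse numbers came from the labels. Nothing in the labels says more on how the libraries of a group were drawn than that they come from separate mice. The test for the colon was edgeR 4.0.16 in R 4.3.3 (TMM, filterByExpr, glmQLFit, glmQLFTest, Benjamini-Hochberg adjustment over all genes tested). The SE is log2FC/√F. The colon TMM factors lay between 0.899 and 1.115. Alternatives were RLE and library size scaling, scaling on epithelial genes, other filters, robust dispersion, DESeq2 1.42.0, limma 3.58.1 (voom, and trend on log2 of the normalized count + 1), other thresholds, a fit of all 12 libraries, each mouse left out, and a pseudocount of 10 for the distances. The steps were tested on simulated data. For edgeR, the simulation gave every gene the same dispersion and had correct labels. It therefore does not cover the spread within labels or the label doubt described above. Exonic lengths and coordinates came from GENCODE vM21.

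The 10 genes and the lists were chosen with earlier results of these data known. The genes named were the 10 members, a written set of companion genes whatever their values, any list gene that was called, the 5 genes nearest to Muc2, and S100a8 and Lcn2. Cdx2, Muc3a, Edem1, Slc12a2, Hepacam2, Klk1, Ramp1 and Retnlg fall outside this rule and were named after their values were seen.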

Additional observations from a re-analysis of the deposited data

How the results depend on the processing

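None of the 10 genes was called under any alternative run: 2 other scalings, scaling on epithelial genes, other filters, robust dispersion, DESeq2, limma-voom, limma-trend, a padj of at most 0.05 alone, the fit of all 12 libraries, or any mouse left out. Over all genes, 1 was called by edgeR, 6 by DESeq2 and 0 by limma-voom or with any mouse left out. The paper, with DESeq2 and the same thresholds, reported many more SDE genes in the colon. Of 100 member log2FC values under the alternatives other than leaving out a mouse, 98 kept their direction. The 2 that reversed were those of Muc2, to 0.24 with scaling on epithelial genes and to 7.89e-05 with no filter, both close to 0 against its SE. These alternatives reuse the same colon libraries and labels, and robust dispersion left each log2FC unchanged. The kept directions are therefore not independent support. Of 60 values with a mouse left out, 10 reversed. They ranged from -1.49 to 1.03 for Muc2, from -0.49 to 0.74 for Spdef, from -9.29 to 0.37 for Retnlb, from -0.0082 to 0.60 for Agr2 and from -0.55 to 0.46 for Spink4. The Retnlb log2FC was -3.26 by limma-voom and -2.69 by limma-trend against -0.30 by edgeR; with libraries at 0 it is set by how zeros enter the fit. An unadjusted p under 0.05 was reached by Atoh1 with library size scaling (0.0485 by edgeR), with scaling on epithelial genes and without mouse 8, and by Retnlb without mouse 1. The share of all genes under 0.05 was not computed for library size scaling or with a mouse left out. The 5 nearest genes to Muc2 kept 4 with a pseudocount of 10, where Chga took the last place. With CPM in place of the normalized counts, the groups overlapped for all 10 genes again. No paired analysis was possible because the groups compared, UC colon (mice 1, 2 and 4) and control colon (mice 7, 8 and 9), share no mouse number. With 3 libraries a group and labels that the inflammation genes go against, differences smaller than the distance from a gene's log2FC to the end of its interval were not detectable. That interval is not adjusted for the number of genes. A call asked for more, a padj of at most 0.05 over all genes tested and |log2FC| > 1.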
